A study of Mus musculus with 2 samples.

Results

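NRF2, encoded by Nfe2l2, is a transcription factor that controls the antioxidant response of mammalian cells. In unstressed cells the adaptor protein Keap1 binds NRF2 and delivers it to a Cul3 ubiquitin ligase for degradation. Oxidants and electrophiles modify Keap1, NRF2 then accumulates, pairs with small Maf proteins and binds antioxidant response elements near genes for glutathione synthesis, thioredoxin recycling, quinone reduction and haem breakdown.

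A set of 10 genes of this response was followed by gene symbol in the count table: Nfe2l2, Keap1, Hmox1, Nqo1, Gclm, Gclc, Srxn1, Txnrd1, Gsr and Osgin1. All 10 were found among the 25509 genes of the table, and all 10 were among the 12941 genes tested, defined as reaching 10 counts in the richer library. The study asked which pathways a circular RNA made from Csnk1g3 exons, circCsnk1g3, regulates in sarcoma cells, and the samples for this are 1 library transduced with shcircCsnk1g3, a hairpin directed at the circRNA, and 1 library transduced with the control hairpin shCTR. Both groups share the same background, C57BL/6 mesenchymal stem cells lacking p53 and overexpressing Ccne1, which had grown as subcutaneous tumors, then been seeded in the lungs of other mice, and were recovered from lung foci before transduction. There was no replicate in either group, so no p-value was computed, and a difference between these libraries cannot be told apart from a difference between any 2 cultures.

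The libraries held 38792143 counts for shcircCsnk1g3 and 42709996 counts for shCTR. Linear Csnk1g3 had 2159 and 2411 counts in shcircCsnk1g3 and shCTR, and circCsnk1g3 itself, which has no poly(A) tail, was not measured by these poly(A) libraries. Trp53 had 3841 and 4334 counts and Ccne1 had 893 and 963. These counts cover whole genes, so they check neither a deleted part of Trp53 nor the added Ccne1. Mesenchymal markers were abundant, with Vim at 5746 and 6683 CPM (counts scaled by TMM to a common library size) and Pdgfra at 264 and 327 CPM. Thy1 alone among 15 mesenchymal markers was at or under 3 counts in both libraries. Of 41 markers of leukocytes, endothelium and lung epithelium, 27 were at or under 3 counts in both libraries and 20 were at 0 in both, among them Adgre1, Lyz2, Kdr, Sftpc and Epcam. The leukocyte list summed to 49.4 CPM in shcircCsnk1g3 and 45.9 CPM in shCTR, nearly all from Cd14, with 1844 and 1774 counts. Cd68, the other leukocyte marker tested, was lower in shcircCsnk1g3, with 87 and 155 counts and a log2 fold change of -0.71 (-1.12 to -0.34). The endothelial list summed to 0.561 and 0.923 CPM, and the lung epithelial list to 13.5 and 11.1 CPM. All 5 tested lung epithelial markers were higher in shcircCsnk1g3, and the intervals of 4 of them held 0 (of 3 with total counts). With TMM the exception was Krt8, a keratin chosen here after its value was seen, with 92 and 46 counts. Foxj1, with 12 and 7 counts, and Krt19, with 10 and 9, passed the filter only through shcircCsnk1g3, which fixed their direction. The median log2 fold change of 0.21 was that of Krt19. Krt18, with 1 and 4 counts, and Cdh1, with 1 and 6, were lower but untested, and 6 of the 13 listed markers were at 0 in both libraries. The part of such cells in the differences below was not tested. Mitochondrially encoded genes took 2.97% and 2.99% of the counts, while Yam1 and Gm42418, which lie within ribosomal RNA sequence, took 0.411% and 0.127%.

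Nqo1 stood apart from the other genes of the set. It was 1.61-fold higher in shcircCsnk1g3 than in shCTR, whereas the other members differed by at most 0.26 on the log2 scale in either direction. The log2 fold change is given throughout for shcircCsnk1g3 over shCTR, computed on TMM-scaled CPM after adding a prior count of 2. The range after it is a 95% Clopper-Pearson interval derived from both counts. This interval covers counting error only. Of the 10 members, 7 lay above and 3 below the control, and their median was 0.09, against a median of 0.00 over all genes tested. Without Nqo1 the median was 0.08. By the criterion of a 1.5-fold difference, 1 member was higher and 0 were lower, while 5.39% of all genes tested were higher and 6.31% were lower by as much. The intervals of 5 members lay above 0 and those of 3 below 0, against 26.9% and 28.2% of all genes tested. Among the 8719 genes whose counts in both libraries summed to 1000 or more, a depth that all members but Osgin1 reached, the intervals of 30.8% lay above 0 and of 33.0% below 0. RNA was taken from whole cultures, in which a change in the share of expressing cells and a change in RNA per cell cannot be told apart.

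**Figure D1:**
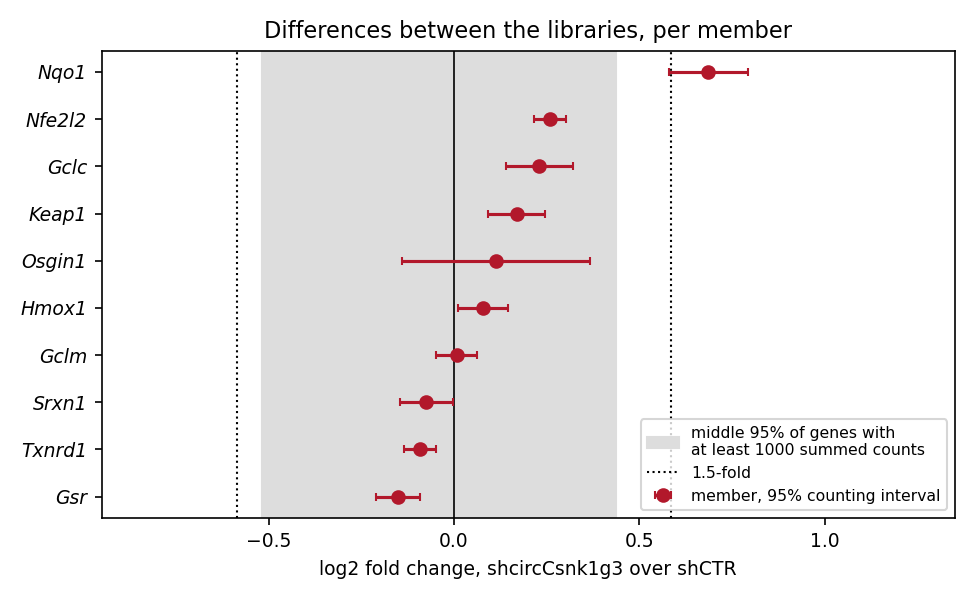
Log2 fold change of each member, shcircCsnk1g3 over shCTR (x axis), with its 95% counting interval as a bar. The grey band holds the middle 95% of genes with at least 1000 summed counts (-0.52 to 0.44), dotted lines mark 1.5-fold, and only Nqo1 (0.69) lies outside the band.

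Nfe2l2 (ENSMUSG00000015839) lies on the minus strand of chromosome 2, chr2:75675513-75704641 (GRCm38). It had 8786 counts in shcircCsnk1g3 and 7912 in shCTR, which correspond to 224 and 187 CPM. The transcript of the regulator itself was thus 19.6% higher in the silenced library, with a log2 fold change of 0.26 (0.21 to 0.30). It ranked 774 from the highest among the 8719 genes with at least 1000 counts. NRF2 is controlled largely through the stability of the protein, which these libraries did not measure.

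Keap1 (ENSMUSG00000003308, chr9:21229730-21239361, minus strand), the repressor of NRF2, had 2783 counts and 2666 counts, or 71.0 and 63.1 CPM. It was therefore higher in the same library as Nfe2l2, with a log2 fold change of 0.17 (0.09 to 0.25). The count of Nfe2l2 was 3.16 times that of Keap1 in shcircCsnk1g3 and 2.97 times in shCTR. This ratio does not depend on the scaling, and it differed between the libraries by 0.09 on the log2 scale, with an exact 95% interval of 0.00020 to 0.18. An annotated antisense gene, Gm16754, shares 510 exon bases with Keap1 on the opposite strand, and whether the counting used strand is not given in the sources used here, so some reads of the Keap1 row may belong to it.

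Nqo1 (ENSMUSG00000003849, chr8:107388225-107403206, minus strand) encodes a quinone reductase that is widely used as a marker of NRF2 activity. It had 1780 counts in shcircCsnk1g3 and 1192 in shCTR, or 45.4 CPM (43.3 to 47.6, exact Poisson interval) and 28.2 CPM (26.6 to 29.9). The silenced library was the higher, and the intervals of both levels were far apart. The log2 fold change was 0.69 (0.58 to 0.79), so that the lower bound lay just under 1.5-fold. It ranked 61 from the highest among the 8719 genes with at least 1000 counts. Of these deeply covered genes, 0.986% were higher and 1.86% lower by at least 1.5-fold. Nqo1 took 4.50% of the summed counts of the 10 members in shcircCsnk1g3 (4.30% to 4.71%, exact binomial interval) and 2.93% in shCTR (2.77% to 3.10%).

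The difference of Nqo1 from each other member was also larger than counting error. Its count relative to that of Nfe2l2 was 0.203 in shcircCsnk1g3 and 0.151 in shCTR, a log2 ratio of ratios of 0.43 (0.31 to 0.54). Relative to Gsr, the member at the other end of the order, it was 0.411 and 0.230, a log2 ratio of ratios of 0.84 (0.72 to 0.96). When the 10 members were put in order of their log2 fold changes, Nqo1 and Nfe2l2 were the 1 pair of neighbors of 9 whose ratio of ratios had an interval off 0. Each of the other 8 neighboring pairs, from Nfe2l2 down through Gclc, Keap1, Osgin1, Hmox1, Gclm, Srxn1, Txnrd1 and Gsr, had an interval that held 0, though neighbors are close by the way they were ordered. Members farther apart were separated, such as Nfe2l2 and Gsr, with a log2 ratio of ratios of 0.41 (0.34 to 0.48). Of the 36 pairs without Nqo1, the intervals of 21 lay off 0.

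**Figure D2:**
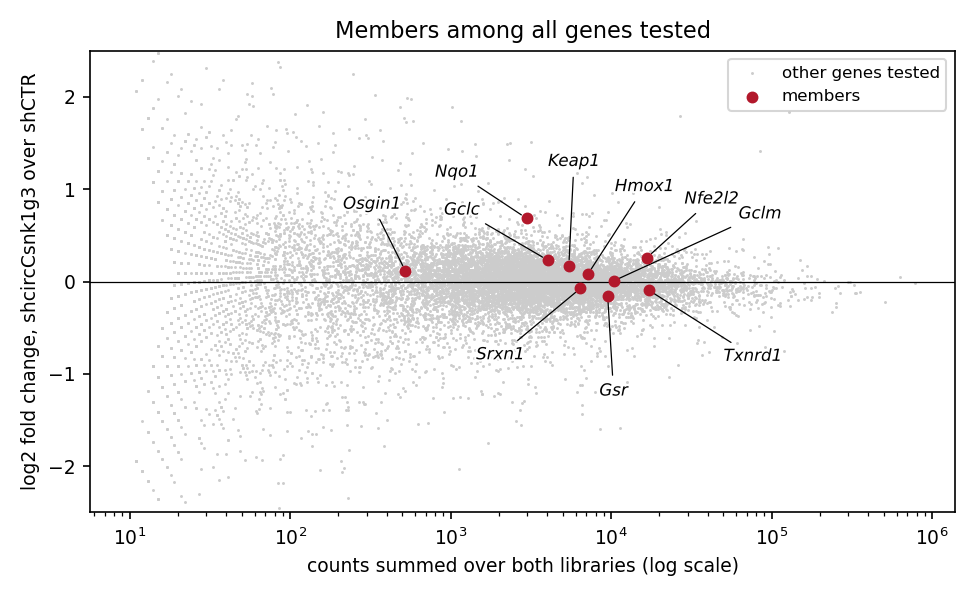
Log2 fold change, shcircCsnk1g3 over shCTR (y axis), against the counts summed over both libraries (x axis, log scale) for the 12941 genes tested, with 48 genes beyond 2.5 in either direction outside the plot. Red points are the 10 members, of which Nqo1 lies at the upper edge of genes of like abundance.

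The subunits of the enzyme that starts glutathione synthesis differed in their fold changes. Gclc (ENSMUSG00000032350, chr9:77754535-77794485) encodes the catalytic subunit of glutamate-cysteine ligase, the rate-limiting enzyme of glutathione synthesis, and Gclm (ENSMUSG00000028124, chr3:122245557-122270732) encodes its modifier subunit. Gclc had 2111 and 1939 counts in shcircCsnk1g3 and shCTR, or 53.8 and 45.9 CPM, a log2 fold change of 0.23 (0.14 to 0.32). Gclm had 4998 and 5358 counts, or 127 CPM in each library, and its log2 fold change of 0.01 (-0.05 to 0.06) was not distinguishable from 0. The count of Gclc relative to that of Gclm was 0.422 in shcircCsnk1g3 and 0.362 in shCTR, a log2 ratio of ratios of 0.22 (0.12 to 0.33). Exons of Gclm share 244 bases with the pseudogene Gm6061 on the same strand and 296 bases with Gm17494 on the opposite strand, so its row may hold reads of either.

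Gsr, Txnrd1 and Srxn1, grouped here after their values were seen, had the lowest log2 fold changes of the set. Gsr (ENSMUSG00000031584, chr8:33652523-33698163) encodes glutathione reductase, which returns oxidized glutathione to its reduced form. It had 4331 counts in shcircCsnk1g3 and 5181 in shCTR, or 110 and 123 CPM, the lowest log2 fold change of the set at -0.15 (-0.21 to -0.09). Txnrd1 (ENSMUSG00000020250, chr10:82833951-82897712), the cytosolic thioredoxin reductase, had 7959 and 9136 counts, or 203 and 216 CPM, with a log2 fold change of -0.09 (-0.13 to -0.05). Srxn1 (ENSMUSG00000032802, chr2:152105516-152111376) encodes sulfiredoxin, which repairs overoxidized peroxiredoxins. It had 3010 and 3414 counts, or 76.8 and 80.8 CPM. Its log2 fold change was -0.07 (-0.15 to -0.0030), and with total counts in place of TMM its interval held 0 (-0.11 to 0.03). The other thioredoxin reductases, Txnrd2 at -0.06 (-0.21 to 0.10) and Txnrd3 at -0.05 (-0.25 to 0.15), had intervals that held 0. The differences of Gsr, Txnrd1 and Srxn1 were small beside the spread of deeply covered genes, of which 1874 were as low as Gsr or lower.

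Hmox1 (ENSMUSG00000005413, chr8:75093621-75100589) encodes haem oxygenase 1, which is also induced by haem and by other stress pathways. It had 3536 counts in shcircCsnk1g3 and 3610 in shCTR, or 90.2 and 85.4 CPM. The log2 fold change was 0.08 (0.01 to 0.14), and its lower bound was close to 0. The count of Nqo1 relative to Hmox1 was 0.503 in shcircCsnk1g3 and 0.330 in shCTR, a log2 ratio of ratios of 0.61 (0.48 to 0.74). Osgin1 (ENSMUSG00000074063, chr8:119434124-119446256), an oxidative stress-induced growth inhibitor, was the least abundant member, with 262 and 261 counts, or 6.68 and 6.18 CPM. Its log2 fold change of 0.11 (-0.14 to 0.37) leaves the direction undetermined at this depth.

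Levels were compared between genes as TMM-scaled CPM per kilobase of annotated exon. In shCTR, Nfe2l2 was the most abundant at 75.7 CPM per kilobase, followed by Hmox1 at 54.5 and Txnrd1 at 53.1, whose counting intervals overlapped. Gsr stood at 45.9, Srxn1 at 28.7, Gclm at 22.7 and Nqo1 at 18.2 CPM per kilobase. Keap1 at 14.0 and Gclc at 13.4 CPM per kilobase had overlapping intervals, and Osgin1 was last at 3.08. The order in the silenced library differed by the place of Nqo1, which at 29.2 CPM per kilobase moved from rank 7 to rank 5. It passed Gclm at 22.8 and reached Srxn1 at 27.3 CPM per kilobase, with which its interval overlapped. Hmox1 and Txnrd1, at 57.5 and 49.8 CPM per kilobase, no longer overlapped in the silenced library.

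**Figure D3:**
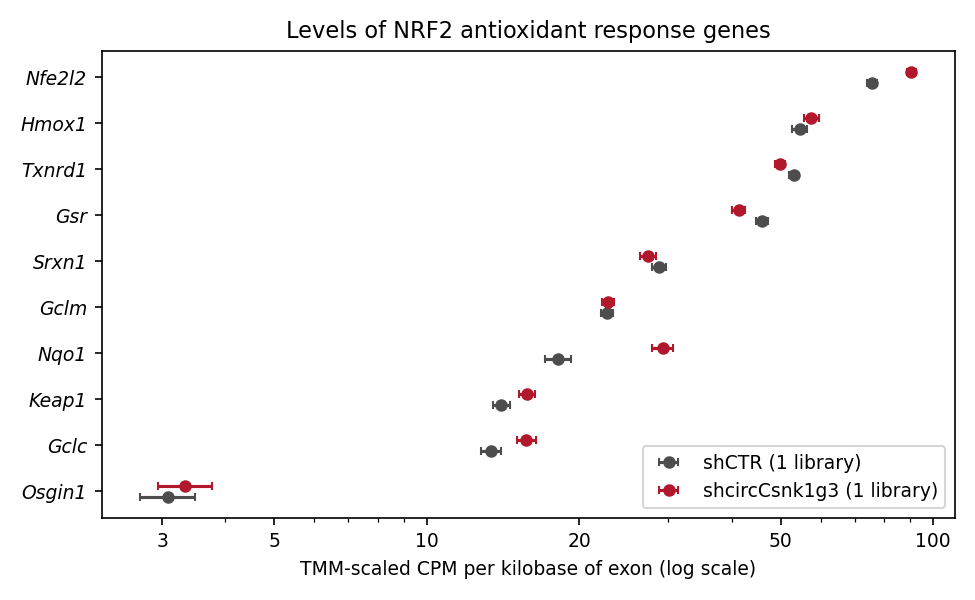
TMM-scaled CPM per kilobase of exon (x axis, log scale) of the 10 members in the shCTR library (grey) and the shcircCsnk1g3 library (red), with exact 95% Poisson intervals as bars. Nqo1 moves from 18.2 to 29.2, and Osgin1 is lowest in both libraries.

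The start regions of the members were searched for letters that NRF2 and AP-1 are known to bind, as these elements are known to mark genes of the response. RefSeq start regions (GRCm38.p6, 250 bases before to 50 after each annotated start) were at hand for 7 members, namely Nfe2l2, Keap1, Nqo1, Gclm, Srxn1, Osgin1 and Txnrd1, the last with 3 starts. The core of the antioxidant response element, TGACNNNGC on either strand, was found in 4 of the 7 members, and in 14.0% of the 27025 genes with such regions. The matches are printed in the direction that reads the core, with the core in capitals.
Nfe2l2: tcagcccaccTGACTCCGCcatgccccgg
Gclm: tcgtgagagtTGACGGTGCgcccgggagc
Srxn1: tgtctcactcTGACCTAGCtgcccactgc
Txnrd1: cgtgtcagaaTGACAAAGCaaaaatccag
The windows are chr2:75704885-75704913 for Nfe2l2, chr3:122245413-122245441 for Gclm, chr2:152105542-152105570 for Srxn1 and chr10:82859104-82859132 for Txnrd1, all on the minus strand of the genome. For Gclm, Srxn1 and Txnrd1 this is the strand opposite to the gene. The leftmost base of the core on the strand of the gene lies at position -240 for Nfe2l2, -134 for Gclm, 29 for Srxn1 and -92 for Txnrd1, counted from the annotated start as 1. The longer form, in which an A follows the core, was held by Txnrd1 alone of these, and by 3.45% of all genes. Neither form was found in the start region of Nqo1, the member that differed most, nor in those of Keap1 and Osgin1. The 4 members with a core in this window had log2 fold changes of 0.26, 0.01, -0.07 and -0.09 in the order printed.

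The AP-1 letters TGANTCA, which can overlap an antioxidant response element, were found in 2 of the 7 members and in 8.97% of all genes with start regions. Srxn1 held 2 such sites and Osgin1 held 1, printed on the strand of the gene with the site in capitals.
Srxn1 upstream site: ctcggagggccTGAGTCAccacgctgtgc
Srxn1 downstream site: caaattcacccTGAGTCAgcggccgggcg
Osgin1: ggggcccctgcTGACTCAcgcttatgaaa
Their windows are chr2:152105411-152105439, chr2:152105468-152105496 and chr8:119437039-119437067 on the plus strand, and the sites begin at positions -102, -45 and -97. None of them overlaps the core matches above, but that search took only C as the fourth letter of the core. With G as that letter, the Srxn1 downstream site and, on the opposite strand, the Osgin1 site would match. The form with G was not searched. Sites farther from the start, where many response elements lie, were not analysed here, and a match of letters is a description and not evidence of binding.

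Genes that control or accompany NRF2 were described from 7 lists that together name 164 genes, of which 134 were tested. Of these 134, 59 were higher and 75 lower in shcircCsnk1g3, with a median log2 fold change of -0.05, and the intervals of 32 lay above 0 and of 59 below 0. These are 23.9% and 44.0% of the listed genes, against 26.9% and 28.2% of all genes tested. By at least 1.5-fold, 3 (2.24%) were higher and 6 (4.48%) lower, against 5.39% and 6.31% of all genes. Among the 103 listed genes with at least 1000 summed counts, 1.94% were higher and 1.94% lower by as much, against 0.986% and 1.86% of all genes of that depth, and 26.2% had intervals above 0 and 50.5% below 0, against 30.8% and 33.0%. With total counts in place of TMM, fewer of the listed genes had intervals below 0. The lists do not include the 10 members. The genes of each list went in both directions, as the plot of the lists shows.

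Genes that act with Keap1 and NRF2 had a median log2 fold change of 0.09, or 0.14 without the count filter, and of the 12 tested 7 were higher and 5 lower. Sqstm1, which encodes p62, an adaptor that binds Keap1 and is itself an NRF2 target, had 35487 and 29950 counts and a log2 fold change of 0.35 (0.33 to 0.37). Nfe2l1, a related transcription factor, had 20945 and 19645 counts, a log2 fold change of 0.20 (0.17 to 0.23). Bach1, a repressor that competes with NRF2 at response elements, had 1377 and 1687 counts, or -0.19 (-0.29 to -0.08) on the log2 scale. The small Maf gene Maff stood at -0.18 (-0.26 to -0.10) on the same scale. The member of this list past 1.5-fold was Bach2, with 77 and 54 counts, chosen after its value was seen, and its log2 fold change was 0.60 (0.10 to 1.15), so counting error alone reaches far below 1.5-fold.

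Genes of glutathione synthesis and use were split, 14 of 31 tested being higher and 17 lower around a median of -0.04, which was -0.0039 with total counts and -0.01 without the count filter. The intervals of 5 lay above 0 and of 12 below 0. Slc7a11, the cystine transporter that supplies glutathione synthesis and is a target of both NRF2 and ATF4, had 6469 counts in shcircCsnk1g3 and 3588 in shCTR, a log2 fold change of 0.96 (0.90 to 1.02). Its heavy-chain partner Slc3a2 had 13114 and 10814 counts, with 0.39 (0.35 to 0.42). In the opposite direction, Glrx, a glutaredoxin that reduces glutathionylated proteins, had 912 and 2128 counts, or -1.11 (-1.23 to -1.002) on the log2 scale. The glutathione transferase Gstm2 stood at -0.44 (-0.59 to -0.29), and Gstm genes are close paralogs among which reads can be divided uncertainly.

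In the thioredoxin and peroxiredoxin system, 6 of 18 tested genes were higher and 12 lower around a median of -0.07 (-0.04 with total counts), the intervals of 3 lying above and of 10 below 0. The mitochondrial thioredoxin Txn2 had 4498 and 6770 counts, a log2 fold change of -0.48 (-0.54 to -0.43). Sesn1, a sestrin and p53 target, stood at -0.36 (-0.53 to -0.19), and the methionine sulfoxide reductase Msrb3 at -0.28 (-0.40 to -0.17). The peroxiredoxin Prdx5 was on the other side, with 3850 and 3086 counts and a log2 fold change of 0.43 (0.36 to 0.50).

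Of 16 genes of NADPH production, which feeds both reductases, 6 were higher and 10 lower, all with intervals off 0, and the median was -0.10. With total counts in place of TMM, the interval of 1 of them, Idh2, held 0. Over all genes with at least 1000 summed counts, a depth that most of this list reached, 30.8% had intervals above 0 and 33.0% below 0. Aldh1l2, a mitochondrial enzyme of folate metabolism, had 7294 and 5060 counts, or 0.63 (0.58 to 0.69) on the log2 scale. The malic enzyme Me2 stood at -0.36 (-0.43 to -0.30), the isocitrate dehydrogenase Idh1 at -0.33 (-0.41 to -0.25) and the NAD kinase Nadk2 at -0.33 (-0.41 to -0.24).

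Haem and iron handling was represented by 18 tested genes, of which 12 were higher and 6 lower, and the median was 0.05, or 0.09 with total counts. The intervals of 7 lay above 0 and of 5 below 0. The biliverdin reductases, which act after haem oxygenase, went in opposite directions. Blvrb had 891 and 686 counts, a log2 fold change of 0.48 (0.34 to 0.63), and Blvra had 601 and 775 counts, with -0.26 (-0.42 to -0.10). The porphyrin transporter Abcb6 stood at 0.37 (0.24 to 0.50) and the transferrin receptor Tfrc at -0.23 (-0.26 to -0.20).

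Of 27 tested genes of xenobiotic conjugation and export, 8 were higher and 19 lower, the lowest list median of the 7 at -0.17. With at least 200 summed counts this median was -0.09, and that of NADPH production was then lower at -0.10. The intervals of 3 lay above 0 and of 14 below 0. Nqo2, the paralog of Nqo1, had 587 and 882 counts, a log2 fold change of -0.48 (-0.63 to -0.33), opposite in sign to that of Nqo1. The export pump Abcc1 had 10094 and 14694 counts, with -0.43 (-0.47 to -0.40), the aldose reductase Akr1b3 stood at -0.29 (-0.33 to -0.25), and the aldehyde dehydrogenase Aldh7a1 at -0.20 (-0.29 to -0.10).

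Superoxide and peroxide enzymes were evenly divided, 6 of 12 tested being higher and 6 lower around a median of -0.02, which was 0.01 with total counts, 0.03 without the count filter and -0.05 with at least 200 summed counts. The intervals of 2 lay above and of 4 below 0. The extracellular superoxide dismutase Sod3 had 656 counts in shcircCsnk1g3 and 2072 in shCTR, and its log2 fold change of -1.55 (-1.68 to -1.42) was the farthest from 0 of the tested genes in the 7 lists. The cytosolic Sod1 stood at 0.15 (0.11 to 0.19), the mitochondrial Sod2 at -0.20 (-0.29 to -0.12) and Cyba, a subunit of NADPH oxidases, at -0.25 (-0.43 to -0.08).

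**Figure D4:**
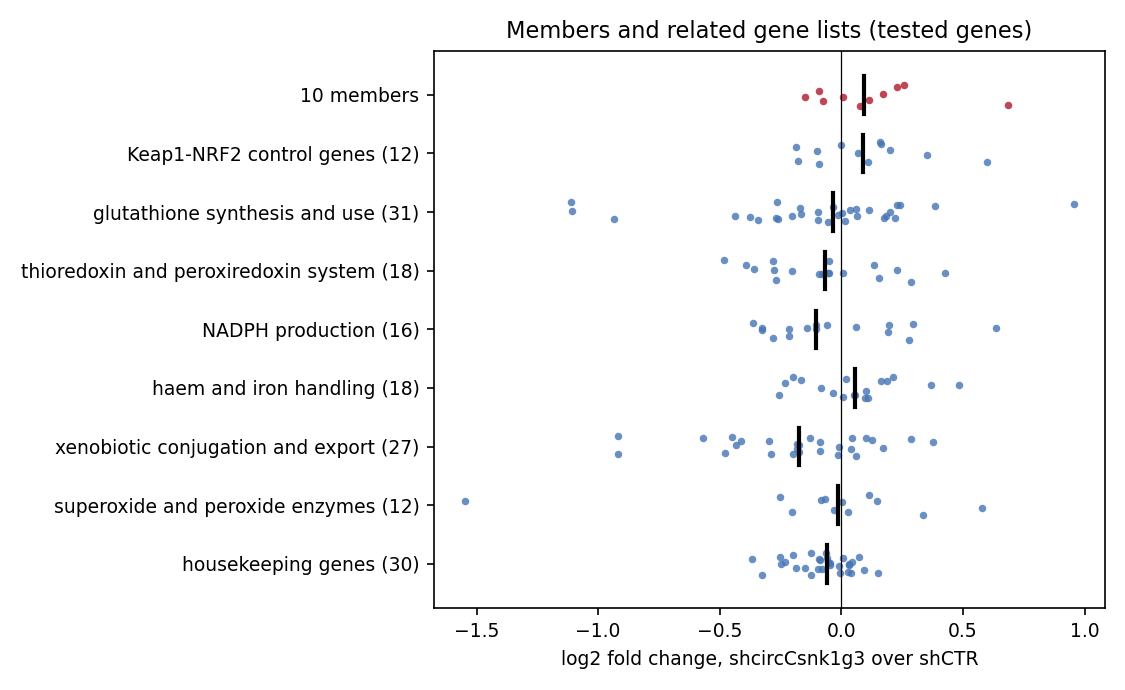
Log2 fold change, shcircCsnk1g3 over shCTR (x axis), of every tested gene of the set (red) and of the related lists and the housekeeping genes (blue, number of tested genes in brackets), with the median as a black bar. Medians run from -0.17 for xenobiotic conjugation and export to 0.09 for the 10 members and for the Keap1-NRF2 control genes, and with at least 200 summed counts the xenobiotic median is -0.09.

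The spread between the libraries was also described with 30 housekeeping genes, of which 1, Tfrc, is also in the haem and iron list. They had a median log2 fold change of -0.06 (-0.03 with total counts), with 9 higher and 21 lower. Their range ran from -0.37 for Gusb, with Actb at -0.33 and Pgk1 at -0.25, to 0.15 for Eif4a2 (0.11 to 0.19). Every member lower than shCTR lay inside this range, as did Hmox1, Gclm and Osgin1, whereas Nqo1, Nfe2l2, Gclc and Keap1 lay above it. Among mesenchymal markers, 2 were higher and 12 lower around a median of -0.14, from Ly6a at -0.69, Nt5e at -0.49 and Pdgfra at -0.31 to Col3a1 at 0.37, and whether a shift in cell state took part in the differences above was not tested.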

How the data were processed

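RNA from mouse sarcoma cells was sequenced as 2 stranded poly(A) libraries, 1 per hairpin. The authors aligned reads to GRCm38 with STAR and estimated counts per gene with RSEM, and the deposited count table holds these estimated counts rounded to whole numbers, so reads shared by paralogs are divided by that model. A deposited table of TMM-scaled signal for 11624 genes, made with edgeR, served as an alternative, and its values are proportional to the counts within each library. Spike-in rows (92, all at 0) were left out. TMM factors from edgeR 4.0.16 (R 4.3.3) were 1.01 for shcircCsnk1g3 and 0.989 for shCTR, with genes of at least 10 counts in 1 library or both.

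Log2 fold changes used a prior count of 2, and intervals (95%) came from scipy 1.17.1 (python 3.11.15, with numpy 2.4.6, pandas 2.3.3 and matplotlib 3.10.9): exact Poisson for levels, Clopper-Pearson for ratios of counts and shares, and the conditional interval of the odds ratio for ratios of ratios. They cover counting error only, since each group had 1 library. No molecular identifiers were counted, so duplicate reads were not set apart and the intervals may be too narrow. The floor, taken as 3 counts, equals 0.0765 and 0.0710 CPM in shcircCsnk1g3 and shCTR. Exon lengths and coordinates are from GENCODE M21 (basic transcripts for length). The study's GENCODE release is not given in the sources used here. Counts of 12858 genes were simulated for this comparison with the Poisson model that the intervals assume. Coverage near 95% was therefore built in, and intervals held the true value for 95.05% of genes. The 200 changed genes were drawn from those with at least 200 summed counts, and the fold change of 199 was recovered to within 0.3 (log2). Of 12658 unchanged genes, 350 passed 1.5-fold through counting noise. The simulation held no variation between cultures.

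The members and gene lists were chosen with earlier results of these data known. Genes named are, beside markers and label checks, all members and, from each list, up to 4 with the largest absolute log2 fold change among those of at least 10 CPM on average, except 1 gene that is not reported here. Bach2, Krt8, Foxj1, Krt19, Krt18, Cdh1, Cd68, Idh2, Eif4a2, Txnrd2 and Txnrd3 were named outside this rule, after their values were seen. Of the listed genes, Selenow did not match a symbol. Alternatives were DESeq2 1.42.0 size factors, total counts, the deposited TMM-scaled table, prior counts of 0.5 and 10, no count filter, at least 200 summed counts, and fold thresholds of 2 and of 25% above equality.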

Additional observations from a re-analysis of the deposited data

How the results depend on the processing

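No paired analysis was possible because each group had 1 library, and no replicate could be left out. Under the 5 alternatives that can change a member's own value (both scalings, the authors' table and both prior counts), all 50 log2 fold changes kept their direction and stayed within their own counting intervals, Nqo1 between 0.68 and 0.72, and the median of the members lay between 0.09 and 0.13. These alternatives reuse the same counts and moved no member by more than 0.0313, so this outcome was close to fixed in advance. Total counts shifted the median of all genes by 0.03, took the interval of Srxn1 across 0 and moved the mesenchymal median to -0.11, that of superoxide and peroxide enzymes from -0.02 to 0.01, that of glutathione genes from -0.04 to -0.0039, that of haem and iron genes from 0.05 to 0.09, that of thioredoxin genes from -0.07 to -0.04 and that of housekeeping genes from -0.06 to -0.03. Without the filter the medians of the Keap1-NRF2 control, glutathione and superoxide lists were 0.14, -0.01 and 0.03. With at least 200 summed counts the medians of the xenobiotic and superoxide lists were -0.09 and -0.05, and in the authors' table that of the superoxide list was -0.03. With total counts, intervals below 0 fell from 14 to 11 in the xenobiotic list and from 10 to 8 in the thioredoxin list. They fell from 12 to 11 for glutathione, from 10 to 9 for NADPH and from 4 to 3 for Keap1-NRF2 control genes. Intervals above 0 rose from 3 to 4 for thioredoxin, from 7 to 8 for haem and iron and from 2 to 3 for superoxide genes. At 2-fold, 0 members passed. Of all genes, 698 were higher and 817 lower by 1.5-fold; these became 349 and 523 when values came from the authors' normalized table, which lacks 1341 of the genes tested, 1765 and 1468 without the filter, 212 and 335 with at least 200 summed counts, 1598 and 1692 at a threshold 25% above equality, and 275 and 330 at 2-fold, where the filters and thresholds act by construction. Depth limits Osgin1, whose counts allow a log2 difference from -0.14 to 0.37.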
